A study of Mus musculus with 2 samples.

Results

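The 45 genes described here encode the proteins of DNA replication, and were chosen by name from the 31055 features that both libraries list. All 45 were found in both, and the rule uses no measured level. The cells were the GFP+ fraction sorted from Sox9iresGFP/+ mouse pituitaries on postnatal day 3, in which a green fluorescent protein is made wherever the stem cell factor SOX9 is. A sorted cell need not still hold SOX9 itself, and both stem cells (SCs) and cells that have lately left that state were collected. One library was made of 3 pooled male pituitaries and one of 3 pooled female pituitaries, all with the same genotype, so that each sex has 1 library. Animals of 1 pool cannot be told apart. The question asked of the genes was how they differ between SCs and the cells that leave the SC state.

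A cell prepares for division by loading the MCM2 to MCM7 helicase onto replication origins, a step called licensing that needs ORC, CDC6 and CDT1. In S phase, CDC45 and the GINS complex switch the helicase on, DNA polymerases copy the strands around the PCNA clamp, and nucleotide enzymes, histone chaperones and ligase complete the work. The genes are known as targets of E2F transcription factors, and fall silent to different degrees when a cell leaves the cycle. Because of this, they are widely used to mark S phase in single-cell data.

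After filtering, 10410 male and 5711 female cells remained, with 105883748 and 62830305 unique molecular identifiers (UMIs, each one captured transcript end, so that levels need no scaling by gene length). Cells were assigned to classes by UMIs of lineage markers, none of which is among the 45 genes. Stem cells (Sox2 and Sox9, at most 1 UMI of Lef1) numbered 3446 male and 3602 female, differentiating cells (at least 2 UMIs of Lef1) 778 and 573, endocrine cells (Neurod1, Nr5a1, Gnrhr, Pou1f1, Ghrhr, Tbx19 and Pax7) 1228 and 289, and mesenchymal cells (collagens, Dcn, Lum and Pdgfra) 619 and 295. Examples from a longer list of markers that were not used for this follow. Aldh1a2 was at 661 and 497 CPM (UMIs of a gene per 1000000 UMIs) in male and female stem cells against 127 and 138 in differentiating cells, Gadd45g at 890 and 639 in differentiating cells, Chga at 797 and 603 in endocrine cells and Tcf21 at 713 and 599 in mesenchymal cells. Gadd45g, Chga and Tcf21 are given in a single class each, so that their values alone do not set the classes apart. The hormone Pomc stood apart, at 1529 CPM in male against 324 CPM in female stem cells. The male library also held 3038 shallow barcodes with under 5000 UMIs that met no class (29.2% of its cells), against 174 in the female library (3.05%). The libraries shared 19 barcodes.

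The start regions of the genes were read first, since they are the DNA that the set has in common. RefSeq start windows of 300 bases (250 before and 50 after the transcription start, GRCm38.p6, which is the mm10 build) were given for 38 of the 45 genes, in 44 windows. An E2F-type site, searched as TTTCCCGC, TTTCGCGC, TTTGCCGC or TTTGGCGC on both strands, was found in 16 of the 44 windows (36.4%), each of a different gene, and in 744 of all 32851 windows (2.26%). Of the 22 matches in the windows of the genes, 13 began within 50 bases of the start. The CCAAT box, searched as CCAAT on both strands, was in 27 of the 44 windows (61.4%) and in 37.4% of all windows. The letters TTTGAA, the core of an element of mitotic genes, were in 5 (11.4%) and in 17.9%, whereas 12 of 17 windows of a list of 20 genes of G2 and mitosis held them. Such matches are letters in a window, and no binding was measured.

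From the 16 genes with an E2F-type match, the windows of 4 are shown, the licensing genes Cdc6, Mcm5 and Mcm6 and the chromatin remodeller Hells. They lie at chr11:98907901-98908200 (plus strand), chr8:75109259-75109558 (plus strand), chr1:128359656-128359955 (minus strand) and chr19:38930740-38931039 (plus strand). Each reads 5′ to 3′ on the strand of the gene, and the capitals mark E2F-type matches.
Cdc6: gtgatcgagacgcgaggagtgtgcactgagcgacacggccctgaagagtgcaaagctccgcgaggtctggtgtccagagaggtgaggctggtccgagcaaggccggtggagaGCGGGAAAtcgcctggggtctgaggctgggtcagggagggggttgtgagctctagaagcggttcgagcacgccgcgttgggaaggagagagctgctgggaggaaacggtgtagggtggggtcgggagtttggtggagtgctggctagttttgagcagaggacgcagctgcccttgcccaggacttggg
Mcm5: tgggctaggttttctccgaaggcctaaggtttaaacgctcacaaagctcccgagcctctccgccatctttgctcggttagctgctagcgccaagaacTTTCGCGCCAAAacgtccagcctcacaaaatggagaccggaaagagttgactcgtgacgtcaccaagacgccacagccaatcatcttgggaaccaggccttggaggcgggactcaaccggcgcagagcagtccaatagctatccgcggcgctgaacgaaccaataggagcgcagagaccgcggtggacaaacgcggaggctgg
Mcm6: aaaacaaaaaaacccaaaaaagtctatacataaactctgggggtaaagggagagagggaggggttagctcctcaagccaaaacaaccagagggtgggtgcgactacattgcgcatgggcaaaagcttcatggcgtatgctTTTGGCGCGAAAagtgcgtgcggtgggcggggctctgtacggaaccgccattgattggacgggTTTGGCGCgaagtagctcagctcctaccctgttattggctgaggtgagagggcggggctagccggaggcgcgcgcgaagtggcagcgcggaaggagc
Hells: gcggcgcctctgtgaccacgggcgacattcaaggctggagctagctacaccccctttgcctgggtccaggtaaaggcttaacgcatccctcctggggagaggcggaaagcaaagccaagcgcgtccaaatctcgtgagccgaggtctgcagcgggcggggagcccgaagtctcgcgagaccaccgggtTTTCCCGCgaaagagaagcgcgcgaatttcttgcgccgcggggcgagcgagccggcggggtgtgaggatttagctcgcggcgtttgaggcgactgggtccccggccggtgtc
Mcm6 held 3 matches, a pair of them overlapping, and Mcm5 held an overlapping pair of matches. Cdc6 and Hells held 1 each. In the annotation used for gene positions, Cdc6 spans chr11:98907801-98923940, so that the window shown for it lies within the gene. No match was found in the windows of Mcm2, Rpa3, Slbp, Rrm2 or Tyms. Mcm7 held matches that began at -165 and 16 bases from the start. A link between matches and levels was not tested.

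Added together, the genes took 0.215% (0.213 to 0.216) of all UMIs in male stem cells and 0.186% (0.184 to 0.187) in female stem cells, with 95% binomial (Clopper-Pearson) intervals that cover counting error only. In differentiating cells the share was 0.107% (0.106 to 0.109) and 0.105% (0.103 to 0.108), in endocrine cells 0.0958% (0.0943 to 0.0972) and 0.108% (0.105 to 0.111), and in mesenchymal cells 0.123% (0.120 to 0.126) and 0.0912% (0.0874 to 0.0951). Stem cells were thus highest in both libraries, 1.997 and 1.76 times above differentiating cells, 2.24 and 1.72 times above endocrine cells and 1.75 and 2.04 times above mesenchymal cells. The order of the other classes was not the same in the libraries. The 10 genes with the highest level in stem cells, from Rfc1 to Rfc2, made 49.2% of the summed level. Stem cells had fewer UMIs than differentiating cells (medians of 10812.5 and 9536.5 against 14016 and 12852). When every cell was thinned to 5000 UMIs before classes were assigned, stem cells were 1.77 and 1.62 times above differentiating cells.

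**Figure D1:**
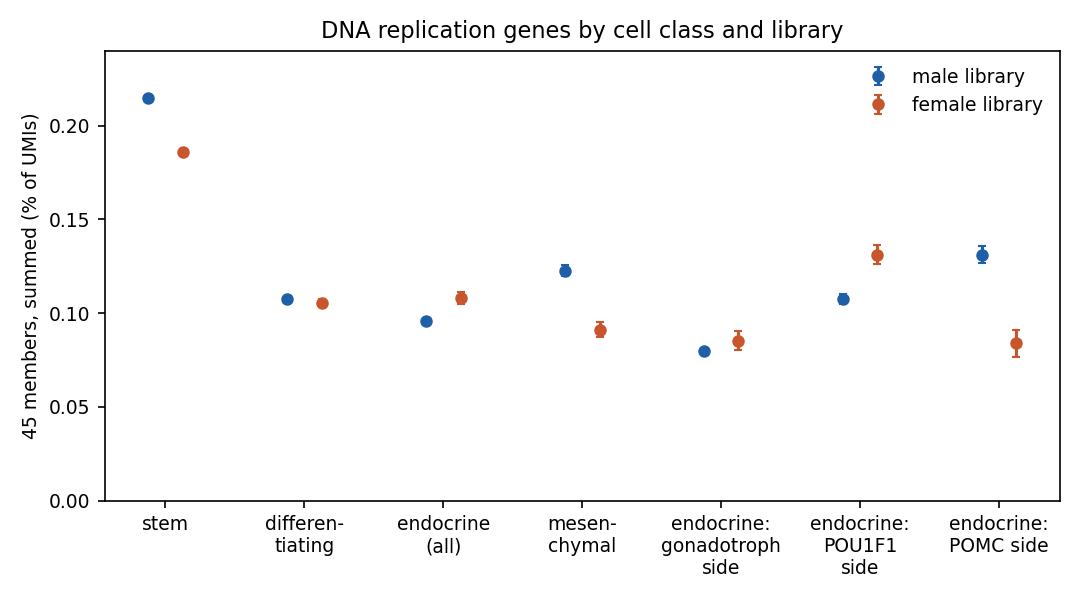
Summed share of UMIs (y axis, %) of the 45 genes in each cell class (x axis), with the endocrine class also divided into its sides. Points are the male (blue) and female (orange) library, bars are 95% binomial intervals, and stem cells, at 0.215% and 0.186%, lie above every other class in both libraries.

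To test single genes, UMIs were summed per library and class and fitted with edgeR, with the libraries as the only replicates. All 45 genes passed its filter on low counts, which left 14706 genes. In differentiating cells 42 of the 45 were lower than in stem cells and 1 was higher, where 26.1% of all genes were lower and 22.4% higher (adjusted p under 0.05). In endocrine cells 44 were lower and 0 higher, against 31.9% and 31.1% of all genes. In mesenchymal cells 39 were lower and 0 higher, against 31.6% and 26.4%. The median log2 difference from stem cells over the 45 genes was -1.18 in differentiating, -1.15 in endocrine and -1.0 in mesenchymal cells, and over all genes it was -0.01, -0.01 and -0.09. These tests share the stem cell sums, and the libraries differ in sex, so that the spread between them is the spread of 1 male and 1 female pool.

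Folds between stem and differentiating cells ranged from 0.723 to 16.3 among the genes. By the mean log2 ratio of the 2 libraries, the largest were those of Mcm10, Rrm2, Cdc6, Uhrf1 and Lig1, and the smallest those of Mcm2, Mcm7, Rpa3, Orc6 and Pold2. Stem cells had the higher level in both libraries for 43 of 45 genes, and were at least 2-fold above differentiating cells in both for 23. Of the 45 genes, 0 had intervals on opposite sides of 1 in the male and female library. All genes were not counted by these rules, so that only the edgeR counts above can be set against them.

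**Figure D2:**
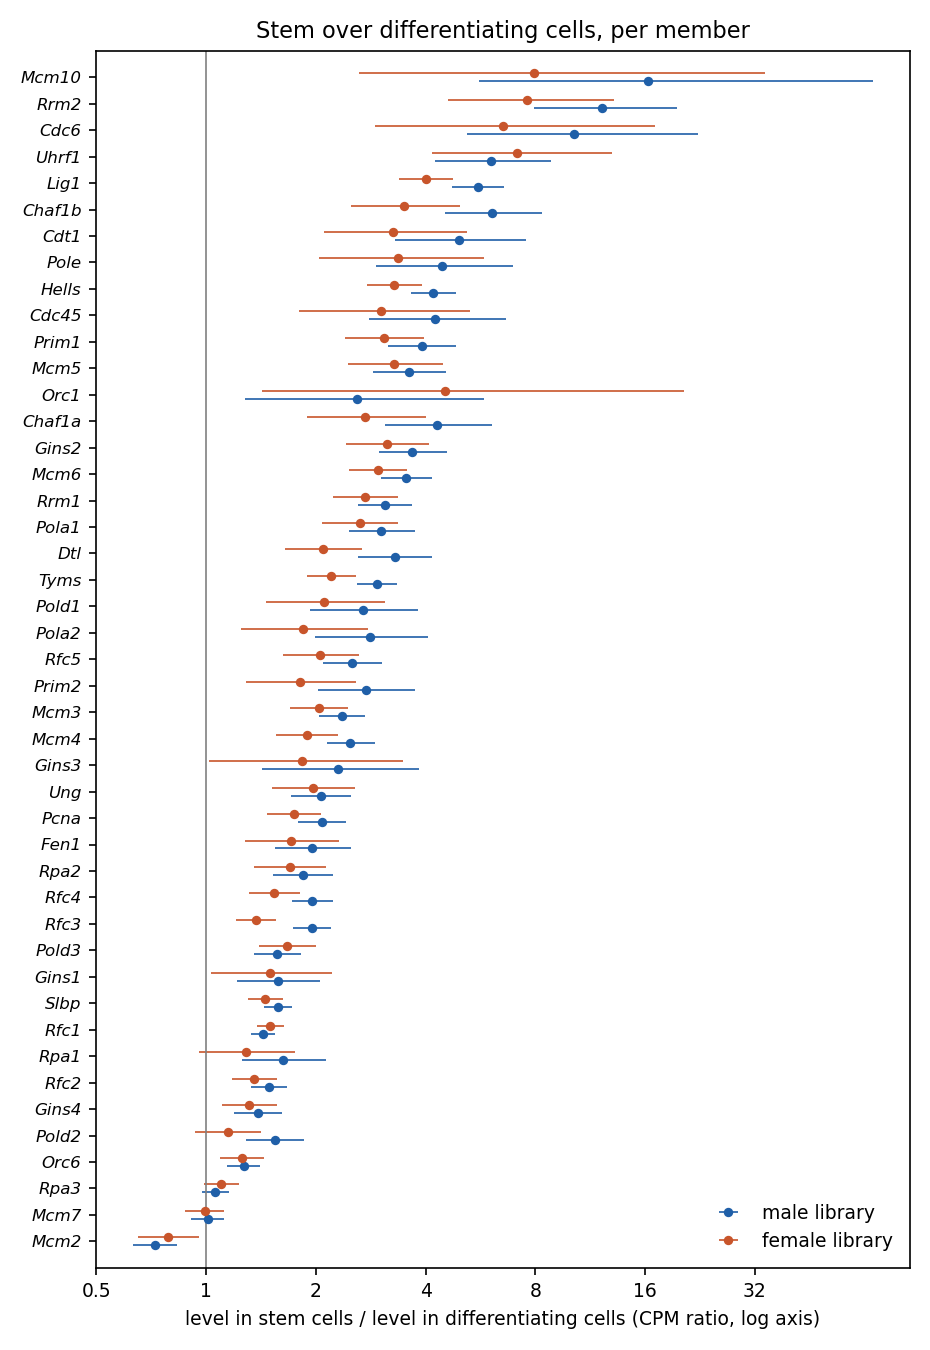
Level in stem cells divided by level in differentiating cells for each of the 45 genes (y axis), on a log axis of CPM ratios (x axis). Points are the male (blue) and female (orange) library and bars run from the lower bound of one Poisson interval over the upper bound of the other to the reverse, with Mcm10 at the top (16.3 and 7.93) and Mcm2 at the bottom (0.723 and 0.787).

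Of the 10 licensing genes, 8 were lower in differentiating than in stem cells, 1 was higher and 1 was not called, while all 10 were lower in endocrine cells and 9 in mesenchymal cells. Mcm6, a subunit of the helicase, was at 75.9 and 70.2 CPM in stem cells, 21.4 and 23.8 in differentiating, 14.8 and 18.4 in endocrine and 41.2 and 29.6 in mesenchymal cells, in the male and female library in this order. Stem cells lay above the other classes without overlap, and the level fell in differentiating cells by edgeR's quasi-likelihood test (log2 -1.68, SE 0.12, adjusted p = 3.30e-07). Orc6, a subunit of the origin recognition complex, was at 80.5 and 64.8 CPM in stem cells, 63.5 and 51.7 in differentiating, 66.2 and 59.6 in endocrine and 64.5 and 46.7 in mesenchymal cells. Its levels lay close together in all classes, and the difference between differentiating and stem cells was small though called (log2 -0.32, SE 0.08, adjusted p = 0.00644). With cells thinned before classes were assigned, this difference of Orc6 was 0.033 on the log2 scale and was not called. Cdc6, which loads the helicase, was at 9.65 and 6.55 CPM in stem cells, 0.946 and 1.01 in differentiating, 1.17 and 1.52 in endocrine and 5.66 and 2.92 in mesenchymal cells. It was thus rare in all classes and rarest in differentiating and endocrine cells, with the fall in differentiating cells called (log2 -3.06, SE 0.29, adjusted p = 3.61e-06). Orc1, Cdt1, Mcm3, Mcm4 and Mcm5 were also lower in differentiating cells, with log2 differences from -2.01 (Cdt1) to -1.12 (Mcm4). Mcm4 was not called in mesenchymal cells (log2 -0.34, SE 0.14, adjusted p = 0.0565).

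Mcm2 went the other way in differentiating cells. It was at 32.04 and 24.04 CPM in stem cells, 44.3 and 30.6 in differentiating, 17.9 and 23.5 in endocrine and 18.8 and 14.6 in mesenchymal cells. Differentiating cells were the highest class in each library, and the rise over stem cells was called by edgeR's quasi-likelihood test (log2 0.44, SE 0.15, adjusted p = 0.0255). The adjusted p was 0.086 when marker minimums were doubled and 0.129 without the library as a block, and 0.163 by DESeq2, with the difference between 0.35 and 0.68 on the log2 scale in all alternatives. In endocrine cells Mcm2 was lower than in stem cells (log2 -0.61, SE 0.16, adjusted p = 0.00607), a difference of -0.033 in the female library alone. Mcm7 was at 68.3 and 67.7 CPM in stem cells, 67.7 and 68.3 in differentiating, 39.2 and 36.9 in endocrine and 40.6 and 33.8 in mesenchymal cells. Stem and differentiating cells had levels with overlapping intervals in both libraries (log2 0.02, SE 0.08, adjusted p = 0.899), and both lay above endocrine and mesenchymal cells (log2 -0.89, SE 0.09, adjusted p = 2.72e-06 for endocrine cells). Mcm2 lies at chr6:88883474-88898780 of mm10 and overlaps no other annotated gene, and Mcm7, at chr5:138164583-138172422, overlaps Cops6 and Ap4m1 on the opposite strand. Of the 45 genes, 11 have such an overlap and 1 (Cdt1) overlaps a gene on its own strand. The subunits form a single hexamer, but their RNA levels were thus not in step between the classes.

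All 6 genes of helicase activation were lower in differentiating and in endocrine cells, and 5 in mesenchymal cells, where Gins3 was not called. Gins4, a subunit of GINS, was at 41.0 and 41.0 CPM in stem cells, 29.7 and 31.2 in differentiating, 33.4 and 37.4 in endocrine and 32.7 and 31.3 in mesenchymal cells. The classes lay within a narrow range, and the fall in differentiating cells was small (log2 -0.42, SE 0.09, adjusted p = 0.00237, by edgeR's quasi-likelihood test). Gins2, of the same complex, was at 42.8 and 35.4 CPM in stem cells, 11.6 and 11.3 in differentiating, 10.4 and 12.9 in endocrine and 25.7 and 22.5 in mesenchymal cells, and fell further (log2 -1.75, SE 0.13, adjusted p = 4.66e-07). The 4 subunits of 1 complex thus differed between classes to unequal degrees, as did those of the MCM hexamer. Mcm10, an activator of the helicase, had the largest fold of all, at 5.60 and 3.99 CPM in stem cells, 0.344 and 0.503 in differentiating, 0.879 and 3.28 in endocrine and 0.606 and 0.417 in mesenchymal cells (log2 -3.51, SE 0.54, adjusted p = 1.95e-04). Its differentiating cells held 4 UMIs in each library. The log2 differences of Cdc45, Gins1 and Gins3 in differentiating cells were -1.86, -0.61 and -1.03.

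All 8 genes of polymerases and primase were lower in differentiating and in endocrine cells. In mesenchymal cells 5 were lower, and Pola2, Prim2 and Pold2 were not called. Pold3, a subunit of polymerase delta, was at 46.3 and 47.4 CPM in stem cells, 29.6 and 28.4 in differentiating, 29.0 and 38.4 in endocrine and 24.7 and 20.8 in mesenchymal cells, with a modest fall in differentiating cells (log2 -0.67, SE 0.11, adjusted p = 3.38e-04, by edgeR's quasi-likelihood test). Prim1, the catalytic subunit of primase, was at 44.9 and 39.4 CPM in stem cells, 11.5 and 12.8 in differentiating, 19.99 and 21.2 in endocrine and 19.4 and 22.1 in mesenchymal cells. Its level in stem cells was above all other classes, and the fall was larger (log2 -1.78, SE 0.12, adjusted p = 2.79e-07). Pold2 was at 31.6 and 26.8 CPM in stem cells, 20.5 and 23.4 in differentiating, 22.7 and 19.96 in endocrine and 24.7 and 22.1 in mesenchymal cells, and its ratio of stem to differentiating cells was 1.54 (1.29 to 1.85) for male and 1.15 (0.934 to 1.41) for female cells, so that the female interval includes 1. Pola2, a subunit of polymerase alpha, had a mesenchymal level of 17.4 (male) and 10.8 CPM (female), above the 13.1 and 10.4 CPM of stem cells, though this was not called (log2 0.31, SE 0.19, adjusted p = 0.193). The log2 differences of Pola1, Pole, Pold1 and Prim2 in differentiating cells were -1.49, -1.95, -1.24 and -1.16.

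The clamp Pcna and the 5 subunits of its loader, replication factor C, were lower in differentiating cells in 6 of 6 cases, in endocrine cells in 5 and in mesenchymal cells in 6. Rfc1, the large subunit of the loader, had the highest level of the 45 genes, at 165 and 187 CPM in stem cells, 115 and 125 in differentiating, 81.4 and 105 in endocrine and 122 and 115 in mesenchymal cells (log2 -0.53, SE 0.08, adjusted p = 2.09e-04 for differentiating cells, by edgeR's quasi-likelihood test). Rfc3 was at 85.4 and 83.1 CPM in stem cells, 43.9 and 60.7 in differentiating, 52.2 and 68.5 in endocrine and 45.9 and 48.4 in mesenchymal cells, also highest in stem cells (log2 -0.69, SE 0.11, adjusted p = 2.49e-04). Rfc2 was at 77.1 and 61.9 CPM in stem cells, 51.9 and 45.6 in differentiating, 64.1 and 58.4 in endocrine and 57.0 and 32.5 in mesenchymal cells and was the 1 gene of the set that was not called in endocrine cells (log2 -0.26, SE 0.11, adjusted p = 0.0515). Pcna itself was at 56.2 and 52.8 CPM in stem cells, 27.0 and 30.3 in differentiating, 29.1 and 33.4 in endocrine and 39.4 and 25.01 in mesenchymal cells (log2 -0.92, SE 0.13, adjusted p = 7.36e-05). A pseudogene of Pcna is listed as a feature of its own, with 62 UMIs in male and 14 in female stem cells, so that few UMIs were assigned to it. The log2 differences of Rfc4 and Rfc5 in differentiating cells were -0.79 and -1.18.

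Replication protein A, which coats single-stranded DNA, was the group with the smallest ratio of stem to differentiating cells, 1.21 and 1.22. Rpa3, its smallest subunit, was at 110.1 and 86.7 CPM in stem cells, 104 and 78.7 in differentiating, 60.1 and 57.1 in endocrine and 76.2 and 58.4 in mesenchymal cells. Differentiating and stem cells were not told apart (log2 -0.09, SE 0.08, adjusted p = 0.398, by edgeR's quasi-likelihood test), while endocrine cells were lower (log2 -0.83, SE 0.09, adjusted p = 5.17e-06). Rpa2 was at 33.4 and 29.6 CPM in stem cells, 18.2 and 17.5 in differentiating, 25.6 and 29.8 in endocrine and 27.5 and 20.4 in mesenchymal cells. It fell in differentiating cells (log2 -0.81, SE 0.12, adjusted p = 1.43e-04), and in endocrine cells its call (log2 -0.29, SE 0.12, adjusted p = 0.0444) rested on the male library, since the difference was 0.0086 in the female library alone. Rpa1 fell in differentiating cells (log2 -0.53, SE 0.16, adjusted p = 0.0148) and was not called in mesenchymal cells (log2 -0.05, SE 0.19, adjusted p = 0.818).

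On the lagging strand, Lig1, the ligase that joins Okazaki fragments, was at 101 and 102 CPM in stem cells, 18.2 and 25.5 in differentiating, 20.9 and 37.9 in endocrine and 34.2 and 21.7 in mesenchymal cells. Stem cells were above all classes, and the gene fell in differentiating cells (log2 -2.23, SE 0.19, adjusted p = 1.39e-06, by edgeR's quasi-likelihood test). Fen1, the nuclease that trims these fragments, was at 21.4 and 17.8 CPM in stem cells, 10.9 and 10.4 in differentiating, 12.4 and 13.4 in endocrine and 10.1 and 8.34 in mesenchymal cells and fell less (log2 -0.86, SE 0.13, adjusted p = 1.79e-04). Both genes were lower in all 3 classes.

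The 3 genes of nucleotide supply were lower in all 3 classes. Tyms, thymidylate synthase, was at 100.1 and 78.5 CPM in stem cells, 34.1 and 35.6 in differentiating, 29.5 and 43.5 in endocrine and 41.4 and 25.01 in mesenchymal cells (log2 -1.34, SE 0.17, adjusted p = 3.63e-05 for differentiating cells, by edgeR's quasi-likelihood test). Rrm1, the large subunit of ribonucleotide reductase, was at 59.5 and 52.4 CPM in stem cells, 19.3 and 19.2 in differentiating, 18.2 and 28.6 in endocrine and 28.3 and 22.9 in mesenchymal cells (log2 -1.52, SE 0.15, adjusted p = 5.15e-06). Rrm2, the small subunit that limits this enzyme, was at 28.4 and 19.997 CPM in stem cells, 2.32 and 2.64 in differentiating, 6.27 and 8.34 in endocrine and 13.9 and 3.33 in mesenchymal cells. It fell further in differentiating cells (log2 -3.30, SE 0.29, adjusted p = 2.15e-06), so that the subunits of 1 enzyme differed in their folds.

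The 4 chromatin genes were lower in all 3 classes. Hells, a remodeller of replicating chromatin, was at 110.4 and 84.4 CPM in stem cells, 26.3 and 25.8 in differentiating, 21.9 and 27.0 in endocrine and 34.8 and 18.3 in mesenchymal cells (log2 -1.89, SE 0.15, adjusted p = 8.47e-07 for differentiating cells, by edgeR's quasi-likelihood test). Chaf1b, a subunit of the chaperone that places histones behind the fork, was at 33.0 and 23.3 CPM in stem cells, 5.42 and 6.66 in differentiating, 5.39 and 5.56 in endocrine and 6.87 and 2.501 in mesenchymal cells (log2 -2.23, SE 0.20, adjusted p = 1.89e-06). Uhrf1, which brings the maintenance methyltransferase to new DNA, was at 22.9 and 16.2 CPM in stem cells, 3.79 and 2.26 in differentiating, 3.69 and 3.03 in endocrine and 5.25 and 2.08 in mesenchymal cells, with ratios of stem to differentiating cells of 6.04 (male) and 7.14 (female) (log2 -2.66, SE 0.18, adjusted p = 2.24e-07). As a group these genes were 4.64 and 3.45 times higher in stem than in differentiating cells, the largest ratio among the 9 roles in both libraries. The log2 difference of Chaf1a in differentiating cells was -1.78.

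Slbp, Dtl and Ung, grouped as genes that act beside the fork, were lower in all 3 classes. Slbp, which binds histone mRNA, was at 128 and 115 CPM in stem cells, 81.6 and 79.3 in differentiating, 89.7 and 81.4 in endocrine and 93.0 and 67.9 in mesenchymal cells, high in every class (log2 -0.58, SE 0.08, adjusted p = 9.45e-05 for differentiating cells, by edgeR's quasi-likelihood test). Dtl, which directs the destruction of CDT1 in S phase, was at 33.9 and 30.2 CPM in stem cells, 10.3 and 14.5 in differentiating, 5.33 and 7.83 in endocrine and 11.9 and 2.92 in mesenchymal cells (log2 -1.38, SE 0.22, adjusted p = 2.75e-04). In mesenchymal cells the ratio of stem cells to them was 2.85 (male) and 10.4 (female). Ung, a glycosylase that removes uracil from DNA, was at 34.9 and 24.9 CPM in stem cells, 16.9 and 12.7 in differentiating, 14.5 and 8.34 in endocrine and 11.9 and 5.42 in mesenchymal cells (log2 -1.003, SE 0.13, adjusted p = 3.77e-05).

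The sums were then taken apart cell by cell, with each cell thinned to 5000 UMIs and shallower ones left out (266 male and 75 female stem cells). The median stem cell held 5 UMIs of the 45 genes in each library, and the median differentiating cell 5 and 4. Classes differed in the upper tail. The 90th percentile was 24 and 22 UMIs in stem cells and 8 and 8 in differentiating cells. At least 20 UMIs were held by 450 of 3180 male stem cells (14.2%, 13.0 to 15.4) and 396 of 3527 female stem cells (11.2%, 10.2 to 12.3). These cells held 47.6% and 44.1% of the UMIs of the genes in stem cells. Past this minimum lay 4 of 760 and 8 of 570 differentiating cells (0.526% and 1.40%), 15 of 1087 and 8 of 284 endocrine cells (1.38% and 2.82%), and 14 of 482 and 3 of 265 mesenchymal cells (2.90% and 1.13%). Of these, 4 of the 8 female endocrine and 3 of the 8 female differentiating cells were among the cells marked as likely doublets. Stem cells past the minimum had more UMIs before thinning than those under it, with medians of 15601.5 against 10819 for male and 12650 against 9318 for female cells. Within 2 UMIs of the minimum lay 139 and 92 stem cells, so that the minimum divides cells with similar counts. Whether the cells past it form a type of their own was not tested.

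**Figure D3:**
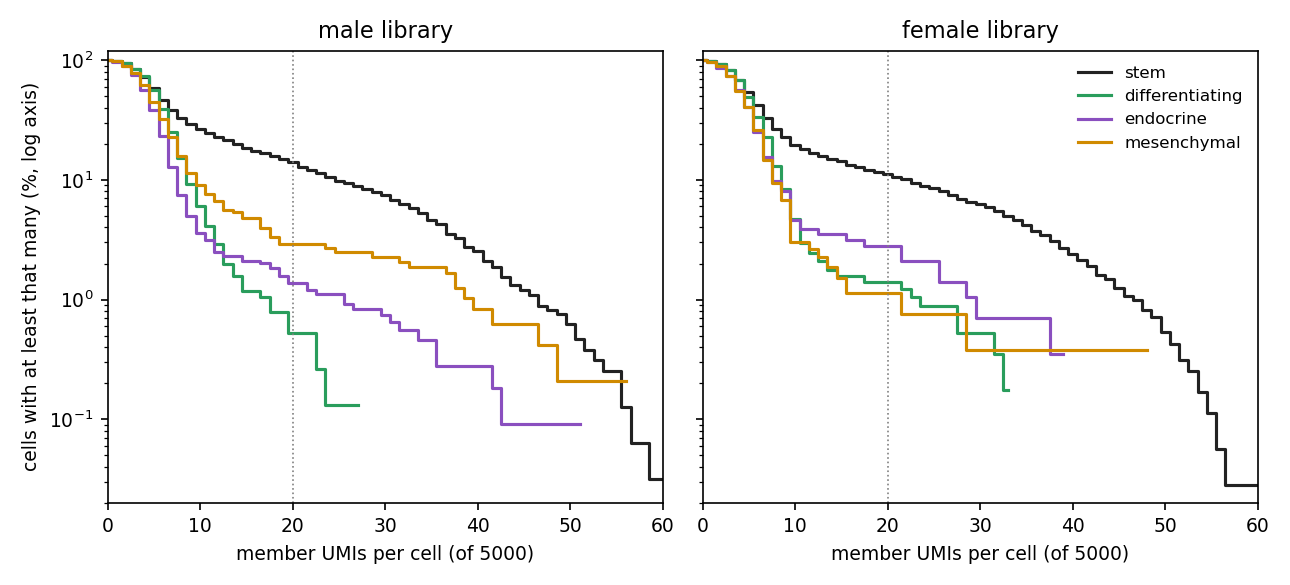
Share of cells (y axis, %, log axis) that hold at least a given number of UMIs of the 45 genes (x axis) after thinning to 5000 UMIs, for the 4 classes in the male (left) and female (right) library. The dotted line marks 20 UMIs, which 14.2% and 11.2% of stem cells reach. At 10 UMIs the curve of stem cells (26.7% and 19.6%) already lies above those of the other classes (at most 9.13% and 4.74%).

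Cells outside the upper tail were read in the same way. In cells with under 20 UMIs of the genes and under 10 UMIs of the 20 genes of G2 and mitosis, the summed share was 0.106% and 0.0995% in stem cells and 0.101% and 0.0934% in differentiating cells, against 0.0810% and 0.0809% in endocrine cells and 0.0929% and 0.0822% in mesenchymal cells. The intervals of stem cells (0.104 to 0.108 and 0.0979 to 0.101) and differentiating cells (0.0981 to 0.105 and 0.0898 to 0.0970) overlapped for the male library and were apart for the female, and those of endocrine cells (0.0787 to 0.0835 and 0.0763 to 0.0858) lay below those of stem cells in both. This cut uses the genes themselves, so that it is a description of where the UMIs lie. A second cut did not use them, and keeps cells that are high for the genes but not for G2 and mitosis. In cells with 0 UMIs of the G2 and mitosis list, stem cells were at 0.116% (0.114 to 0.118) and 0.109% (0.107 to 0.111) and differentiating cells at 0.0989% (0.0955 to 0.102) and 0.0926% (0.0886 to 0.0966), with intervals apart in both libraries. Per gene under the first cut, with the gene left out of the sum that sets the minimum, 7 of 45 had a level in these stem cells above that of differentiating cells with intervals apart in both libraries, and 2 had one below. By the same rule, 14.7% of 12991 genes were above and 11.5% below. These genes had at least 20 UMIs in the thinned stem and differentiating cells of each library. The share of the 45 genes above was thus near that of all genes, and the share below was smaller. Single genes are described below by their values only. The median ratio over the 45 genes was 1.17 and 1.08.

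The 2 genes that were lower in these stem cells were Mcm2 and Mcm7. Mcm2 was at 19.7 and 15.2 CPM in such stem cells and at 48.1 and 29.4 CPM in such differentiating cells, and Mcm7 at 47.1 and 44.8 against 68.6 and 58.4 CPM. Both helicase subunits were thus higher in Lef1+ cells that held few UMIs of the other genes than in stem cells of the same kind. Lig1 went the opposite way, with 42.6 and 41.6 CPM in these stem cells and 13.0 and 14.7 CPM in these differentiating cells. Mcm6 (43.3 and 41.3 against 21.01 and 20.1 CPM) and Prim1 (15.8 and 16.7 against 7.98 and 7.17 CPM) also kept a difference. The levels of Slbp (81.8 and 73.1 against 80.1 and 69.8 CPM), Pcna (23.1 and 24.4 against 22.6 and 29.4 CPM) and Tyms (30.6 and 28.0 against 28.7 and 30.5 CPM) gave ratios whose intervals include 1 in both libraries.

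The genes were not restricted to this tail alike. Stem cells were ranked by the UMIs of the other 44 genes, and the level of each gene in the top 10% of cells was set against that in the lower 50%. The ratio was at least 10 in both libraries for 24 of 45 genes and under 2 in both for 0, while 0.969% of the 12691 genes with at least 20 UMIs in stem cells of each library reached 10 and 89.0% stayed under 2 when ranked by all 45. Since the cells were ranked by other genes of the set, these counts describe how the set moves together. Free RNA was not estimated, so that a single UMI need not come from the cell it was counted in. Rfc1 went from 47.0% and 51.7% of cells in the lower 50% to 77.7% and 77.3% in the top 10%, with ratios of 2.58 and 2.42. Rpa3 (2.65 and 2.67) and Gins4 (2.65 and 2.33) had ratios of the same size. At the other end stood Cdc6, with a UMI in 23.0% and 19.9% of the top cells, and with 1 UMI in the 1590 lower male cells and 0 in the 1763 lower female cells.

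Pole, the catalytic subunit of polymerase epsilon, had 4 and 5 UMIs in the lower cells and 102 and 89 in the top cells. Rrm2 had ratios of 74.0 and 86.6, Hells of 43.8 and 32.4, Uhrf1 of 33.6 and 39.3 and Cdt1 of 30.0 and 32.7. Mcm2 was no exception here, at 8.78 and 8.72, and Mcm7 was at 4.51 and 5.32. Within stem cells both genes thus rose with the rest of the set, although their levels in differentiating cells did not fall.

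**Figure D4:**
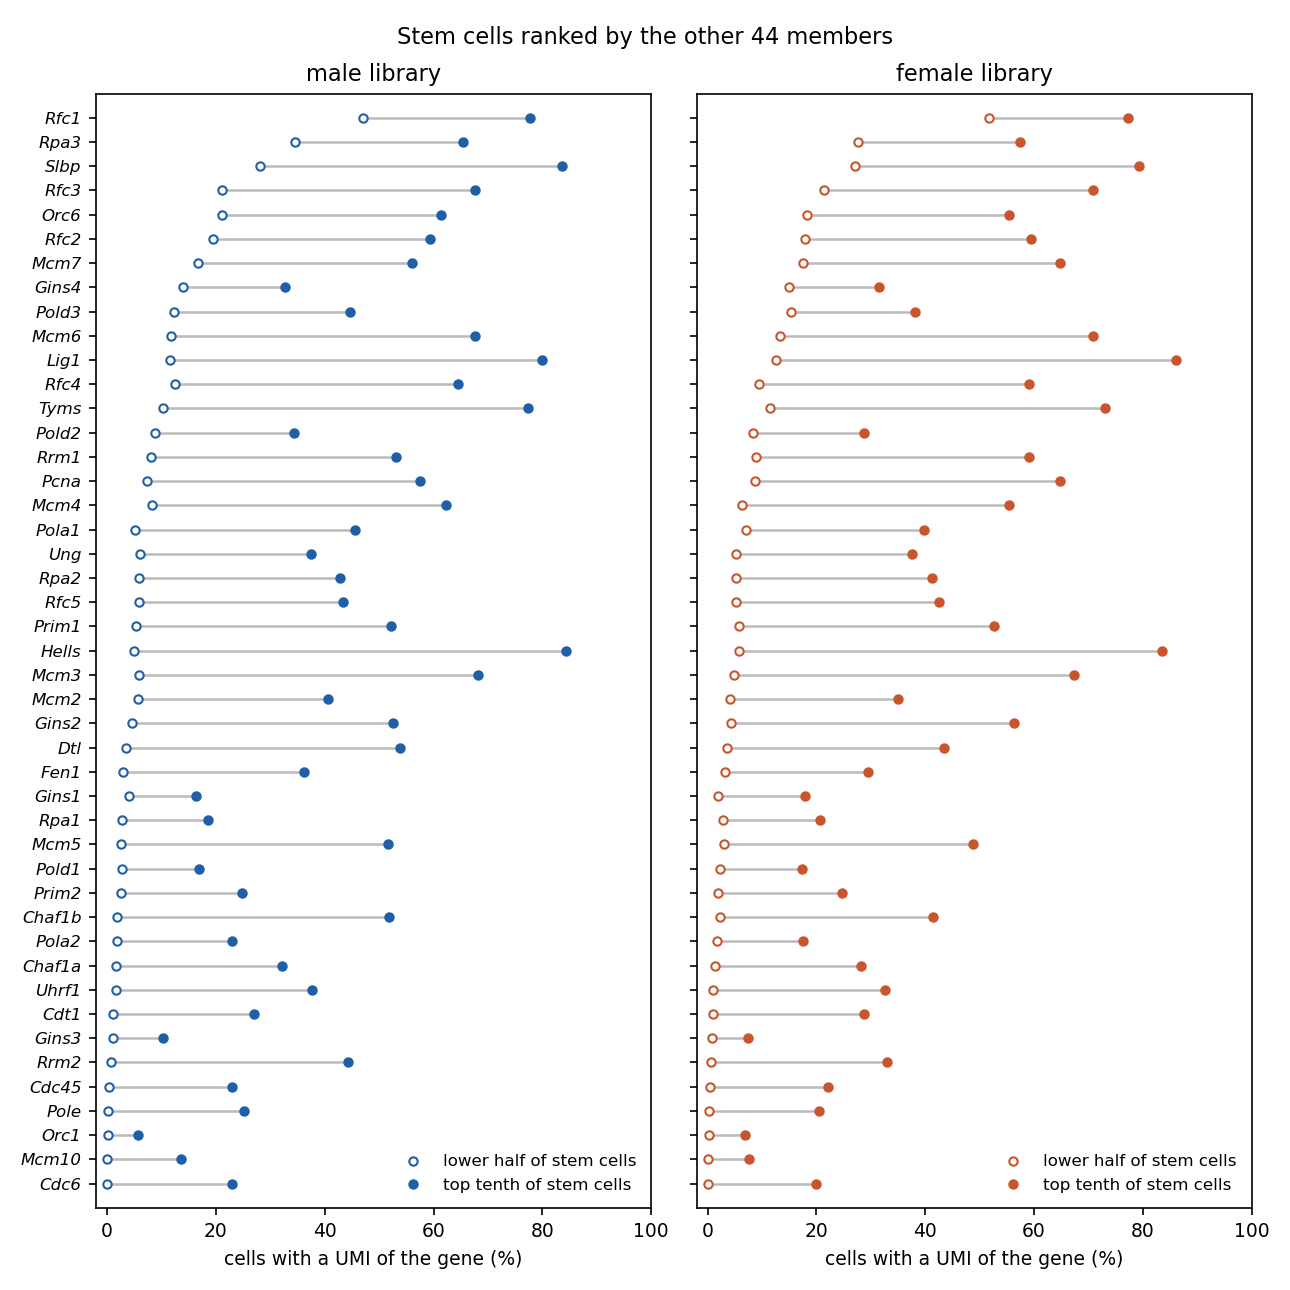
Share of stem cells with at least 1 UMI of a gene (x axis, %) for each of the 45 genes (y axis), after thinning to 5000 UMIs, in the male (left) and female (right) library. Open points are the lower 50% and filled points the top 10% of cells ranked by the other 44 genes, and Rfc1 at the top is found in 47.0% and 51.7% of the lower cells, while Cdc6 at the bottom is found in 0.0629% and 0%.

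To place the genes within the cycle, stem cells were also divided by the list of 20 genes of G2 and mitosis. Cells with at least 20 UMIs of the replication genes and under 10 of that list numbered 289 male and 240 female, cells high for both numbered 161 and 156, cells high for G2 and mitosis only numbered 312 and 220, and cells low for both 2418 and 2911. Each gene was left out of the sum when its own level was read. Ung fell from 139 and 138 CPM in cells high for replication genes only to 38.5 and 39.7 CPM in cells high for both, and Mcm5 from 143 and 157 to 90.2 and 90.2 CPM. Rrm2 went the other way, from 84.8 and 45.2 to 174 and 170 CPM, as did Tyms, from 251 and 232 to 485 and 493 CPM. Intervals were apart in both libraries for 4 genes that were higher in cells high for both (Rrm1, Rrm2, Slbp and Tyms) and 2 that were lower (Mcm5 and Ung), where 2.11% of the 12691 genes were higher and 1.01% lower. In cells high for G2 and mitosis only, 41 of 45 genes were below the cells high for both with intervals apart in both libraries, against 2.88% of the 12691 genes. The cells of this comparison were set apart by other genes of the set. Rrm1 and Tyms still had 113 and 123 CPM and 123 and 118 CPM there, whereas Cdc6 had 7 and 0 UMIs.

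Along the step out of the stem state the genes fell at the first UMI of Lef1, a transcription factor of the WNT pathway. In stem and differentiating cells pooled and thinned to 5000 UMIs, the summed share was 0.183% and 0.165% with no UMI of Lef1, 0.107% and 0.0977% with 1, 0.0992% and 0.0950% with 2, and 0.103% and 0.0919% with 3 or more. Cells with at least 20 UMIs of the genes made up 13.8% and 11.3% of those without Lef1, and 3 of 443 and 3 of 346 cells with 1 UMI. With 2 UMIs they were 0 of 150 male and 1 of 147 female cells, and with 3 or more 0 of 89 and 0 of 67, which allows shares of up to 4.06% and 5.36% by the binomial interval. Lef1 also sets the classes, with stem cells held to at most 1 UMI before thinning. Cells low in both the stem cell factors and Lef1 are in neither class. A split by Lef1 at a fixed level of Sox2 plus Sox9 therefore restates in part the contrast between the classes. Among cells with 2 to 4 UMIs of Sox2 plus Sox9, 246 of 1742 male and 204 of 1725 female cells without Lef1 were past 20 UMIs, against 2 of 301 and 1 of 274 cells with Lef1.

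**Figure D5:**
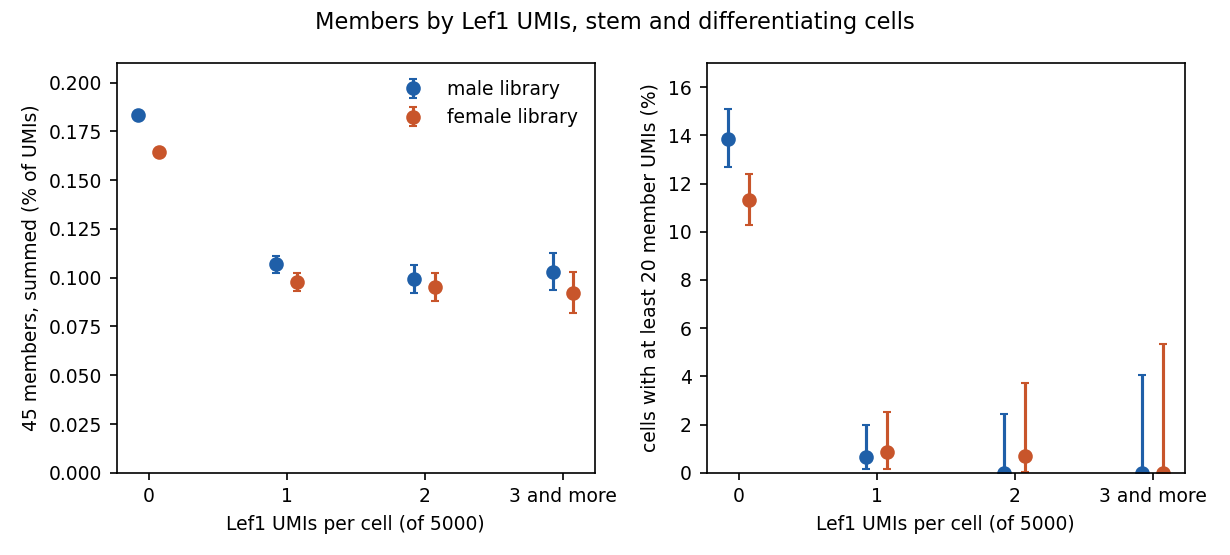
Summed share of UMIs of the 45 genes (left, y axis, %) and share of cells with at least 20 of their UMIs (right, y axis, %) by the number of Lef1 UMIs in a cell (x axis), in stem and differentiating cells thinned to 5000 UMIs. Points are the male (blue) and female (orange) library with 95% intervals, and both measures drop between 0 and 1 UMI of Lef1, from 13.8% and 11.3% of cells past 20 UMIs to 0.677% and 0.867%.

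Among stem cells, those with at least 2 UMIs of the endothelin receptor Ednrb had a summed share of 0.189% and 0.163%, and those without Ednrb but with at least 2 UMIs of Aldh1a2, an enzyme of retinoic acid synthesis, 0.197% and 0.166%. Cells past 20 UMIs made up 14.1% (10.0 to 19.1) and 10.5% (8.35 to 13.1) of the first and 16.3% (14.5 to 18.2) and 12.1% (10.2 to 14.1) of the second. The intervals overlapped in both libraries.

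The endocrine class was not uniform. On the gonadotroph side (717 male and 96 female cells) the summed share was 0.0797% and 0.0852%, and on the side of Pou1f1, the factor of somatotrophs, lactotrophs and thyrotrophs (424 and 153 cells), it was 0.108% and 0.131%. On the side of Tbx19 and Pax7, the POMC lineage, it was 0.131% in 84 male cells and 0.0839% in 38 female cells. At least 20 UMIs were held by 1 of 609 male and 0 of 95 female gonadotroph-side cells, 7 of 393 and 7 of 149 Pou1f1-side cells, and 7 of 84 and 1 of 38 POMC-side cells. As a mean over cells, the share was 0.0885% and 0.0864% on the gonadotroph side and 0.104% and 0.105% on the Pou1f1 side. On the POMC side this mean was 0.107% and 0.0804%. Likely doublets made up 5.72% and 0% of gonadotroph-side, 3.30% and 2.61% of Pou1f1-side and 0% and 0% of POMC-side cells. The likely doublets among female endocrine cells past 20 UMIs, given above, were on the Pou1f1 side. Their part in the values of that side was not tested. Hells was at 10.3 and 9.66 CPM on the gonadotroph side and at 22.7 and 42.1 CPM on the Pou1f1 side. For Rrm2 the values were 1.09 and 0 against 3.61 and 14.9 CPM. Values of these genes on the POMC side are not given here, so that they do not order all the sides. The male Rrm2 level of the whole endocrine class, given above, was higher than on either of these sides. Male cells outside them, mainly those of the POMC side, thus held more Rrm2. In the female library the level of the whole class lay between these sides. The male and female POMC-side cells differed in depth, with medians of 27405 and 14800 UMIs, and the part of depth in their shares was not tested.

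Male and female libraries were compared within each class by size alone, since there is 1 library per sex. The sources name more than one version of the droplet kit without tying a version to a library, so that kit, sex and library cannot be told apart. In stem cells 0 of the 33 genes with at least 20 CPM passed a 1.5-fold difference, where 1.04% of all genes were past it with the male higher and 1.17% with the female higher. Most were slightly higher in the male library, with a median log2 difference of 0.27 over these genes and 0.04 over all genes. Mcm4 had the largest male excess among them, at 64.0 and 43.7 CPM, while Rfc1 was lower in the male library, at 165 and 187 CPM. In differentiating cells 0 of 19 genes were past 1.5-fold (1.29% and 1.52% of all genes). In endocrine cells Lig1 (20.9 and 37.9 CPM) and Rrm1 (18.2 and 28.6 CPM) were higher in the female library (2.53% of all genes, with 2.79% higher in the male), and 0 genes were past this limit once the cells with the highest doublet scores were removed.

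In mesenchymal cells 8 of 23 genes were past 1.5-fold with the male higher, where 4.10% of all genes were, and 0 with the female higher (1.78% of all genes). They were Mcm3 (31.1 and 17.9 CPM), Mcm4 (53.5 and 29.6), Hells (34.8 and 18.3), Lig1 (34.2 and 21.7), Pcna (39.4 and 25.01), Rfc2 (57.0 and 32.5), Rfc5 (26.1 and 17.1) and Tyms (41.4 and 25.01). The interval of the ratio excluded 1 for all of these but Rfc5. The share of mesenchymal cells past 20 UMIs was 2.90% (1.60 to 4.83) in male and 1.13% (0.234 to 3.27) in female cells. Their intervals overlap, and sex cannot be told apart from the library. Likely doublets made up 6.14% of male and 1.02% of female mesenchymal cells. Counts between the libraries for this class without likely doublets are not given here.

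Other genes of DNA replication, a list of 42 of which 41 were tested, moved less evenly. In differentiating cells 28 were lower and 3 higher than in stem cells, in endocrine cells 35 and 1, and in mesenchymal cells 30 and 2. Over all genes tested, in this order of classes, 26.1%, 31.9% and 31.6% were lower and 22.4%, 31.1% and 26.4% higher. Summed, they were 1.49 and 1.28 times higher in stem than in differentiating cells. Clspn, a checkpoint adaptor at the fork, Tk1, which salvages thymidine, and Gmnn, the inhibitor of CDT1, fell with log2 differences of -3.00, -2.87 and -2.52. The 3 that were higher in differentiating cells were Orc2, Orc4 and Asf1a, at log2 0.36, 0.33 and 0.19 (adjusted p = 0.0165, 0.011 and 0.0415 by edgeR's quasi-likelihood test). Orc2 and Orc4 are subunits of the origin recognition complex, and Asf1a is a histone chaperone. All 20 genes of G2 and mitosis were lower in each of the 3 classes, and their sum was 11.7 and 7.80 times higher in stem than in differentiating cells.

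The inhibitors of cyclin-dependent kinases did not move together. Cdkn1c (p57) was at 497 and 524 CPM in stem and 1100 and 1088 CPM in differentiating cells, and Cdkn1a (p21) at 32.2 and 30.5 against 66.7 and 75.2 CPM. Cdkn1b (p27) went from 93.5 and 94.97 CPM to 59.2 and 65.4 CPM. All 3 differences were called by edgeR's quasi-likelihood test (log2 1.11, 1.18 and -0.59, adjusted p = 4.2e-05, 1.90e-04 and 0.002). The genes whose levels over the 8 sums of class and library most resembled the mean of the 45 genes were Bub1b, Aurkb, Sgo2a, Aspm and Tk1, with Pearson correlations from 0.992 to 0.995 over 8254 genes compared. The 8 points share 2 libraries and are mainly set by the gap between stem cells and the other classes.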

How the data were processed

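Single-cell RNA was captured on droplets from 1 male and 1 female pool of 3 pituitaries each. The authors deposited one filtered UMI count matrix per library, made with Cell Ranger 3.0.2 on mm10 with an eGFP sequence added, per the file headers and labels, whose submitters' notes also name R 3.6.0 and Seurat 3 and 4. From these raw counts, barcodes with under 50 genes or with a mitochondrial share over 3 SD above the mean of their library (20.4% male, 26.1% female) were left out, which removed 159 and 85. Classes were set by the UMIs of markers named in the report. Pituicyte-like cells, endothelial or immune cells, cells with clashing endocrine, mesenchymal or stem markers and cells that met no class entered no comparison. Doublets were not removed in the results as reported. Scrublet (scanpy 1.11.5) marked 867 male and 261 female cells, at 0.8% per 1000 cells, and these were removed in an alternative. UMIs were summed per library and class and tested with edgeR 4.0.16 (quasi-likelihood, TMM, library and class as terms, Benjamini-Hochberg over 14706 genes, R 4.3.3), with DESeq2 1.42.0 as an alternative. On simulated counts of 14214 genes for the differentiating contrast, 72.7% of changes of 0.5 on the log2 scale were recovered. Changes of 1 and 2 were recovered in 100% of cases, and 4.71% of calls were false. This simulation set the spread by hand and changed only 66, 71 and 63 genes by 0.5, 1 and 2. Far more genes were called in the data, so that these rates need not hold for the reported tests. The library numbers pair the sums, since all classes of 1 library come from the same pool. Intervals are exact and cover counting error only. Genes described in full were, per role, those with the highest level in stem cells, and those with the 5 largest and 5 smallest folds between stem and differentiating cells. The 45 genes and all lists were chosen with earlier results of these data known. No test between sexes was made, as each has 1 library.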

Additional observations from a re-analysis of the deposited data

Results flagged for a closer look

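Cells that entered no comparison held UMIs of the replication genes at levels between those of the named classes. Cells with clashing markers had a summed share of 0.133% (male) and 0.111% (female). They met the endocrine minimum with over 1 UMI of Sox2 plus Sox9, or the mesenchymal minimum with endocrine markers or over 1 UMI of Sox2. Among them 32.1% and 19.4% were marked as likely doublets. Shallow cells that met no class, with under 5000 UMIs, had a share of 0.169% in the male library (3038 cells) and 0.132% in the female library (174 cells), which lies above the shares of differentiating cells in both libraries. These 4 values are given because they come from cells that the report does not use. Their source was not tested.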

How the results depend on the processing

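Averaged over both libraries, the share in stem cells was 0.2002% as reported, 0.166% with cells thinned to 5000 UMIs before classes were assigned, 0.271% without mitochondrial, ribosomal protein and hormone UMIs, 0.174% as a mean over cells and 0.145% without the 5 genes of highest level. The ratio of stem to differentiating cells was 1.88 as reported, 1.70 thinned, 2.13 with doubled marker minimums, 1.70 as a mean over cells and 2.19 without those 5 genes, and that to mesenchymal cells was 1.89, 1.61 thinned and 2.10 without them. Stem cells past the minimum of 20 UMIs were 12.7%, 23.1% with a minimum of 10 and 6.86% with 30, and differentiating cells 0.965%, 5.39%, 0.263% and, with doubled marker minimums, 0.275%. The ratio of the share at 0 to that at 3 or more Lef1 UMIs was 1.79, and 1.81 without likely doublets, an alternative chosen after seeing the data.

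Genes past 1.5-fold between the libraries numbered 2 in stem and 3 in differentiating cells when thinned, 7 in endocrine cells with doubled minimums and 0 without likely doublets, and 1 in stem and 4 in endocrine cells without mitochondrial, ribosomal protein and hormone UMIs. The library was a block in the fits. With no replicate block, 39, 37 and 34 genes were lower in differentiating, endocrine and mesenchymal cells, and 0 were higher in differentiating cells. The call of Mcm2 as higher was also lost, with 0 genes higher, under doubled marker minimums and by DESeq2. When thinned, 29, 33 and 30 genes were lower. Without stem cells that held over 100 hormone UMIs, an alternative chosen after seeing the data, 42 genes were lower in differentiating and 45 in endocrine cells. Shares of all genes in these alternatives are not given here. A change in these counts therefore cannot be told from a change in the calls over all genes.

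The direction of some single genes changed. In differentiating cells Mcm7 was at log2 -0.11 with doubled minimums and -0.038 without a filter, and between -0.013 and 0.013 with 1 library left out, and Orc6 was at 0.033 thinned. In endocrine cells Rpa2 was at -0.38 without the female and 0.0086 without the male library. In mesenchymal cells Mcm4 was at 0.13, Prim2 at 0.15 and Rpa1 at 0.32 thinned, and Rpa1 at 0.0011 by DESeq2. With 1 library left out Rpa1 was between -0.26 and 0.22 and Gins3 between -1.07 and 0.12, the higher value without the male library in both cases. The cause was not tested. Values without 1 library rest on the other alone and have no test.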
